A study of Caenorhabditis elegans with 2 samples.

Results

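CDC-48, the *Caenorhabditis elegans* form of p97, and the cofactors that bring it its substrates were examined for binding of ATTF-5 at their promoters. The 9 genes were cdc-48.1, cdc-48.2, cdc-48.3, ufd-1, npl-4.1, npl-4.2, ubxn-1, ubxn-2 and ubxn-3, out of 19973 protein-coding nuclear genes. They were chosen by a measured value, because cdc-48.1 had one of the strongest peaks of the data, so their peak values are given as a description with no test. A promoter window ran from 1000 bp upstream to 200 bp downstream of the annotated 5′ end of a gene, and a gene was called bound when the summit of a peak lay in it. By this rule 6 of the 9 genes (66.7%) were bound, against 12.3% of all protein-coding genes. The bound genes were cdc-48.1, cdc-48.2, ufd-1, ubxn-1, ubxn-2 and ubxn-3. No summit lay in the windows of cdc-48.3, npl-4.1 or npl-4.2. Since the choice of genes rested on the same peaks, nothing is read from the difference between 66.7% and 12.3%.

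ATTF-5 is named as an AT-hook transcription factor, after a short motif that contacts the minor groove of AT-rich DNA. Its binding was measured by ChIP-seq, in which the DNA recovered with an antibody to a chromatin protein is sequenced. The animals were of strain OP724, with the unc-119(tm4063) mutation and the transgene wgIs724, which carries attf-5 joined to TY1, EGFP and 3xFLAG tags together with a wild-type unc-119 copy. They were taken whole as young adults of both sexes at 66 hours, after synchronisation by bleaching and starvation of L1 larvae, and sonicated chromatin was recovered with an antibody to GFP. The only group held 2 biological replicates, numbered 1 and 3, and both came from this 1 transgenic line, so that the protein followed was the tagged transgene product. Whole animals mix all tissues, and peak lists hold no expression values by which the stage or tissue could be checked against markers.

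CDC-48 is a ring-shaped AAA ATPase that uses ATP to pull ubiquitylated proteins out of membranes, chromatin and complexes, mostly on their way to the proteasome. UFD-1 and NPL-4 form the adaptor that recognises the ubiquitin chain, and the UBXN proteins carry a UBX domain that docks on CDC-48 and directs it to particular tasks. In *C. elegans* cdc-48.1 and cdc-48.2 encode closely similar and partly redundant p97 proteins, and the machinery is known for roles in DNA replication, in degradation from the endoplasmic reticulum and in the germ line. CDC-48.3 is a more distant AAA protein, known for restraining the Aurora B kinase AIR-2.

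The sequences under 4 of the summits are shown because they place the strongest peak, that of cdc-48.1, beside its weaker paralog cdc-48.2 and beside the 2 strongest cofactor peaks among the 9 genes. Each is the reference sequence (RefSeq, WBcel235, which is ce11) within 90 bp of the summit, on the strand of the gene. They lie at chrII:10563473-10563653 (minus strand) for cdc-48.1, chrII:8138121-8138301 (plus strand) for cdc-48.2, chrIV:2725847-2726027 (minus strand) for ubxn-2 and chrII:221293-221473 (minus strand) for ubxn-3. All 4 lie upstream of the gene's annotated 5′ end. Capitals mark CGCGC and ACGCAG or their reverse complements, which were picked after the sequences had been looked at.
cdc-48.1: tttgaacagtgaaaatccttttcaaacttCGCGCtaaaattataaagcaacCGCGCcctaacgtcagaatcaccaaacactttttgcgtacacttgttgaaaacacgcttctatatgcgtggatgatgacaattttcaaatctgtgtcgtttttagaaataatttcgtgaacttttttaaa
cdc-48.2: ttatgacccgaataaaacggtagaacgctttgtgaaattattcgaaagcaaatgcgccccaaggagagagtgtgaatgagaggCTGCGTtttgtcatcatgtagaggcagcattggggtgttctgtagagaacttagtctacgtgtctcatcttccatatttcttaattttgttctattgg
ubxn-2: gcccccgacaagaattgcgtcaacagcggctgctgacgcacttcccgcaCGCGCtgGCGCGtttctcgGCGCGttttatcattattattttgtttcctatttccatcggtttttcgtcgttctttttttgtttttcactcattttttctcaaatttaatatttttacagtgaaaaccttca
ubxn-3: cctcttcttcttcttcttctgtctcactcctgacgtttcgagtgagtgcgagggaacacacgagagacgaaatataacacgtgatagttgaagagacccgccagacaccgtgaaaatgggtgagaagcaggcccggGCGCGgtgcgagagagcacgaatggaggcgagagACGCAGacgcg

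The values are deposited lists of regions in ce11, each region with a summit and a signal value in the authors' own scale of enrichment. The replicate lists held 30000 regions (replicate 1) and 28299 regions (replicate 3), and the list from both replicates pooled held 30000, most of them weak. A thresholded list kept the 3331 pooled regions that passed the authors' reproducibility threshold, and these are the peaks. The weakest had a signal of 89.6, the median was 143 and the strongest had 2844. Of the 3331 peaks, 3182 had a summit in both replicate lists within 100 bp, and over them the log2 ratio of replicate 1 to replicate 3 signal was 0.13 ± 0.52 (median ± SD over peaks). A peak's pooled signal was close to the sum of its replicate signals (median ratio 1, quartiles 0.984 and 1.02), so pooled and replicate values are on different scales. No source used here gives the read depth or the peak caller, and without them a signal value carries no counting interval.

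The ATPase gene cdc-48.1 (WBGene00007352, chromosome II 10560036 to 10563407, minus strand) had a single peak, at 10563340 to 10563794, with its summit 156 bp upstream of the 5′ end. Its signal was 1565 in the thresholded list, 820 in replicate 1 and 744 in replicate 3 (mean of the replicates 782 ± 53.6, SD, n = 2). Both replicates thus placed it high, with rank 4 in replicate 1, rank 5 in replicate 3 and rank 4 of 3331 in the thresholded list. The signal was 11 times that of the median peak and 55% of the highest one. The summits of the replicates lay 162 bp (replicate 1) and 151 bp (replicate 3) upstream, 11 bp apart. The log2 ratio of replicate 1 to replicate 3 was 0.14, next to the median of 0.13 over all matched peaks. The nearest upstream gene is C06A1.6 on the same strand, whose end lies 705 bp away, and no other protein-coding gene had this summit in its window.

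The neighbours of cdc-48.1 in the order of promoter peaks by signal were genes of other kinds. Above cdc-48.1 stood the peaks nearest to tasp-1 (signal 2844), drr-2 (1916) and rpl-3 (1716), and below it those nearest to K12H4.5 (1512), Y17G9B.5 (1443) and rpl-35 (1362). rpl-3 and rpl-35 encode proteins of the large ribosomal subunit, and tasp-1 is named for the threonine protease taspase. The closest by signal was K12H4.5, which lay 52.8 below cdc-48.1. The order of that pair differed between the replicates: K12H4.5 had 762 in replicate 1 and 751 in replicate 3, against 820 and 744 for cdc-48.1. The pair therefore overlapped over the replicates. rpl-3, with 905 and 814, was above cdc-48.1 in each replicate, although its lower value of 814 fell under the 820 of cdc-48.1 in replicate 1. Across these 7 peaks the log2 ratio of replicate 1 to replicate 3 ran from 0.01 to 0.15.

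**Figure D1:**
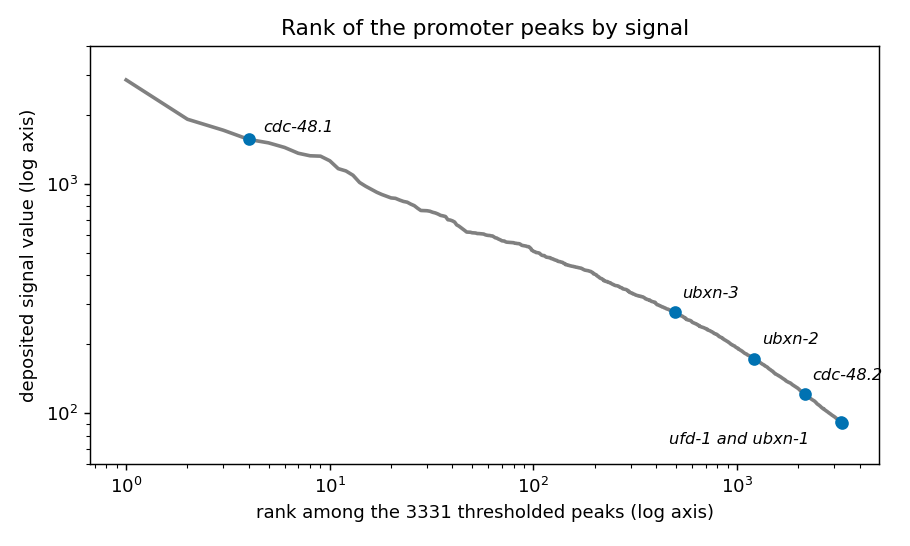
Signal of each of the 3331 thresholded peaks (deposited signal value, log axis) against its rank (log axis), as a grey line, with the 6 bound genes as blue points. The point of cdc-48.1 sits at rank 4 with a signal of 1565, and the other 5 lie between rank 496 (ubxn-3) and rank 3272 (ubxn-1).

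The second p97 gene, cdc-48.2 (WBGene00008053, chromosome II 8138496 to 8141230, plus strand), had a peak at 8137999 to 8138422 with the summit 285 bp upstream. Its signal was 121.3 in the thresholded list, 63.3 in replicate 1 and 55.6 in replicate 3, which put it at rank 2156, under the median peak. The cdc-48.1 signal was 12.9 times that of cdc-48.2 in the thresholded list, 13.0 times in replicate 1 and 13.4 times in replicate 3. The replicate values of the paralogs did not overlap. A further pooled region lay 837 bp upstream of cdc-48.2 with a signal of 80.8, below the 89.6 of the weakest thresholded peak. It was seen in both replicates, with 49.6 at the same place in replicate 1 and 35.8 at 812 bp upstream in replicate 3. That region also fell in the window of ctns-1, a gene on the opposite strand named for the lysosomal cystine transporter cystinosin, 741 bp upstream of its 5′ end.

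No region of any of the 4 lists had a summit in the window of cdc-48.3 (WBGene00010562, chromosome I 8032863 to 8035696, minus strand). The nearest pooled summit lay 2740 bp downstream of its 5′ end with a signal of 21.2, close to the lowest pooled value of 20.3. The nearest thresholded peak was 10427 bp away and had a signal of 90.9. The 5′ end of cdc-48.3 lies 102 bp from that of K04G2.4 on the opposite strand, so the short stretch between this divergent pair held no summit either.

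The coding sequences of cdc-48.1 and cdc-48.2 were 76.6% identical over 2412 aligned bases, and each was less like cdc-48.3 (61.5% for cdc-48.1 and 61.6% for cdc-48.2). Of the 300 bp upstream of their 5′ ends, cdc-48.1 and cdc-48.2 had 260 positions aligned without gaps, and 60.8% of these were identical. The same share was 59.9% for cdc-48.1 with cdc-48.3 and 61% for cdc-48.2 with cdc-48.3. The median over all 36 pairs of the 9 promoters was 60.9%, which is close to these 3 values.

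Among the adaptor genes, ufd-1 (WBGene00006733, chromosome IV 12329408 to 12330890, minus strand) had a peak at 12330926 to 12331349, 248 bp upstream, that barely passed the threshold. Its signal was 91.8 in the thresholded list, 63.1 in replicate 1 and 34.0 in replicate 3. Among the 6 bound genes it had the widest gap between replicates, a 1.86-fold difference (log2 0.89), 1.47 SDs above the median ratio of all matched peaks. The replicate summits were also the farthest apart of the 6, at 168 bp (replicate 1) and 271 bp (replicate 3) upstream, which is a gap of 103 bp. The upstream gene F19B6.1 lies on the same strand and ends 86 bp before ufd-1, and the pooled summit lay in its 3′ untranslated exon. A weak pooled region stood 937 bp upstream with a signal of 25.1.

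The other adaptor subunit is encoded by npl-4.1 (WBGene00019120, chromosome II 5631351 to 5633284, plus strand) and npl-4.2 (WBGene00019121, chromosome II 5622889 to 5624959, plus strand), and neither window held a summit in any list. The nearest pooled summit lay 1919 bp upstream of npl-4.1 with a signal of 32, and 5617 bp downstream of the 5′ end of npl-4.2 with a signal of 20.5. The nearest thresholded peak was the same for both, 18280 bp from npl-4.1 and 26742 bp from npl-4.2, with a signal of 268. These genes are a near-exact copy of each other, with 99.5% identical coding sequence and 100% identical promoters. The repeated stretch spanned 3307 bp at npl-4.1 and 3359 bp at npl-4.2 and began 1325 bp upstream of each 5′ end, so it covered the whole window. Only 2.74% of the 32-base words in either window occurred once in the genome, where the median gene had 100%.

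Windows of such low uniqueness held no thresholded or pooled summit. Of 255 protein-coding genes with under 10% unique words, 0 were bound and 0 had any pooled region. Among 2575 genes from 10% to under 90% the shares were 6.80% bound and 28.0% with a pooled region, and among 17143 genes of at least 90% they were 13.3% and 40.8%. The missing peaks at npl-4.1 and npl-4.2 therefore cannot be told apart from regions in which reads could not be placed, since no source used here gives the treatment of reads with several matches. For cdc-48.3 this limit does not apply, because 100% of its words were unique. Of the 7 genes whose windows were mostly unique (89.9% or more), 6 were bound, the exception being cdc-48.3. The 89.9% was the value of cdc-48.1 itself. No share of all genes was computed at that cut, so nothing is read from this count.

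**Figure D2:**
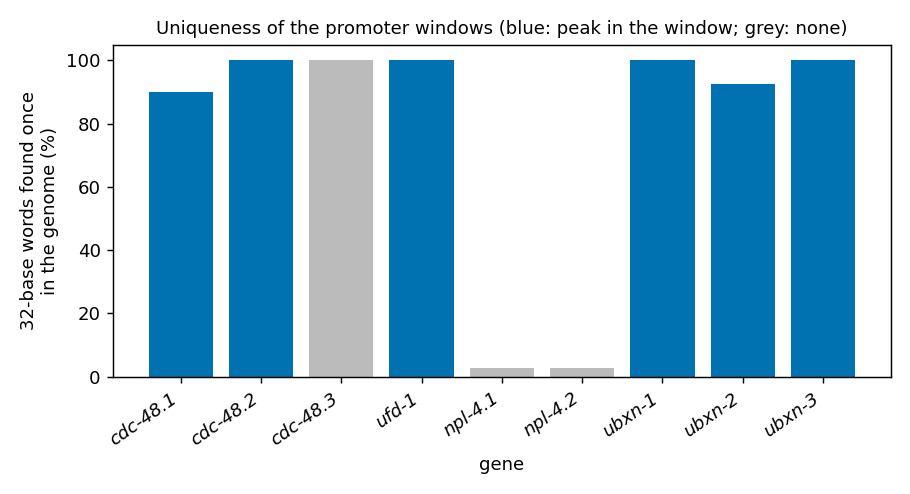
Share of 32-base words in each promoter window that occur once in the genome (%, bars from 0), for the 9 genes, in blue with a peak in the window and in grey without one. The npl-4.1 and npl-4.2 bars stand at 2.74%, while cdc-48.3 has no peak at 100%.

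The UBX-domain genes ubxn-1, ubxn-2 and ubxn-3 were bound, at different strengths and distances. ubxn-3 (WBGene00018586, chromosome II 217049 to 220667, minus strand) encodes the relative of human FAF1, which acts with CDC-48 in removing replication factors from chromatin. Among the cofactors in the 9 genes it had the strongest peak, at 221268 to 221447, with 276 in the thresholded list, 138 in replicate 1 and 135 in replicate 3. The replicates lay closest together here (mean 137 ± 2.73, SD, n = 2; log2 ratio 0.04). Its summit was the farthest upstream, 716 bp from the 5′ end, and the nearest upstream gene, Y43H11AL.1, ends 2033 bp away. Nearer to the 5′ end only weak regions were listed, with a pooled signal of 29.6 at 143 bp downstream and a replicate 1 signal of 21.7 at 10 bp downstream.

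ubxn-2 (WBGene00022381, chromosome IV 2720313 to 2725819, minus strand), a relative of the mammalian p47 cofactor, had a peak at 2725725 to 2726148 with the summit 118 bp upstream. Its signal was 173 in the thresholded list, 97.8 in replicate 1 and 76.4 in replicate 3, above the median peak at rank 1216. The replicate summits lay 178 bp and 139 bp upstream. ubxn-1 (WBGene00017733, chromosome I 2434002 to 2435691, plus strand), another UBX-domain cofactor, had one of the weakest peaks, at 2433561 to 2433984, with 90.9 in the thresholded list, 53.1 in replicate 1 and 40.5 in replicate 3. That summit lay 229 bp upstream of ubxn-1 and only 158 bp upstream of tipn-1, a divergent gene named for the replication-fork protein TIPIN, with 387 bp between the 5′ ends. A peak in this shared stretch cannot be given to one gene of the pair.

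**Figure D3:**
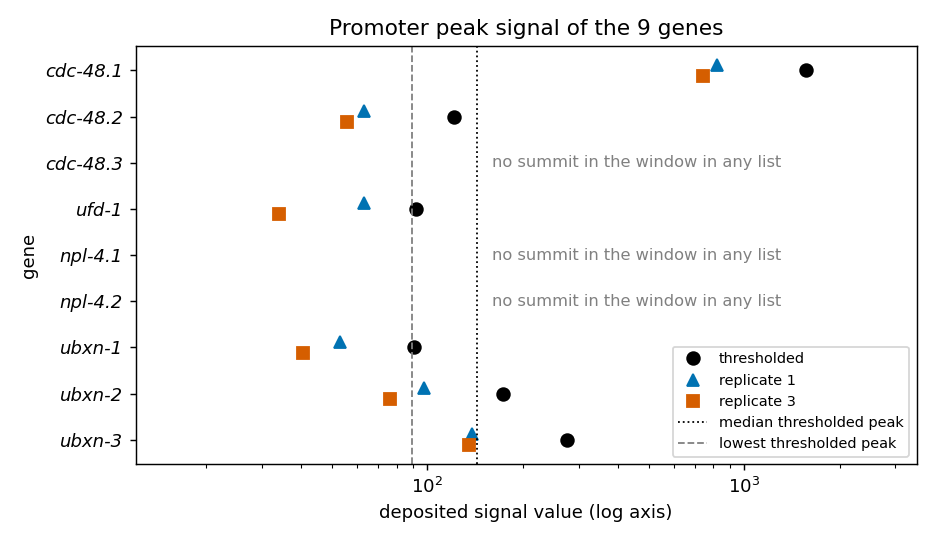
Deposited signal value (log axis) of the strongest peak in each of the 9 promoter windows, in the thresholded list (black circles), replicate 1 (blue triangles) and replicate 3 (orange squares). The dotted line is the median thresholded peak (143) and the dashed line the weakest (89.6). The 3 points of cdc-48.1 stand right of all others, ufd-1 and ubxn-1 lie at the dashed line, and replicate 1 is the higher replicate in all 6 bound genes.

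In order of thresholded signal the bound genes were cdc-48.1, ubxn-3, ubxn-2, cdc-48.2, ufd-1 and ubxn-1. The cdc-48.1 signal was 5.67 times that of ubxn-3 and 17.2 times that of ubxn-1. From cdc-48.1 down to cdc-48.2 the replicate values of neighbours in this order did not overlap. Those of cdc-48.2 (63.3 and 55.6) overlapped those of ufd-1 (63.1 and 34.0), and those of ufd-1 overlapped those of ubxn-1 (53.1 and 40.5), so the lower part of the order did not exceed the spread between replicates. Both ufd-1 and ubxn-1 sat just inside the threshold, at ranks 3236 and 3272 of 3331. The further cdc-48.2 region of 80.8, at rank 3845 of the pooled list, lay outside it. All 6 were higher in replicate 1, as was the median over all matched peaks (log2 ratio 0.13). For 5 of the 6 the log2 ratio was within 1 SD of that median, the exception being ufd-1. The shares of all matched peaks meeting these rules were not computed, so nothing is read from either count.

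**Figure D4:**
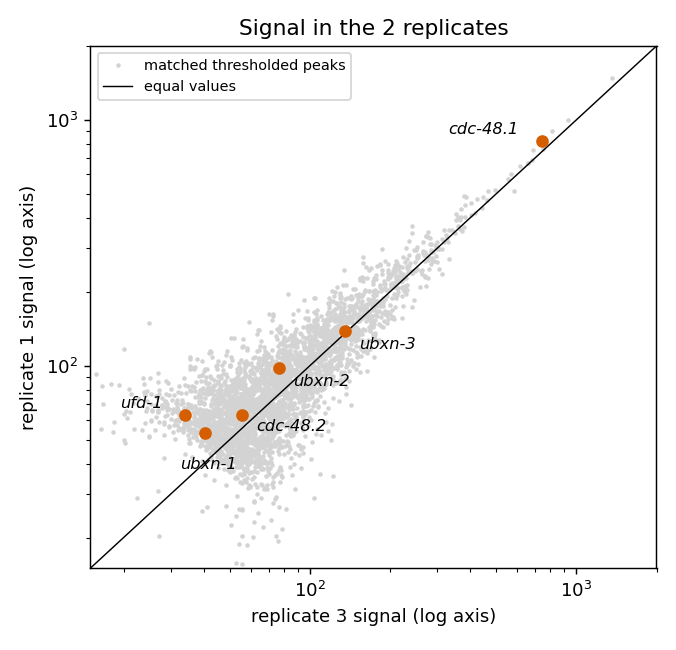
Signal in replicate 1 against signal in replicate 3 (both deposited values on log axes) for the 3182 peaks matched in both replicates (grey) and the 6 bound genes (orange), with the line of equal values. The cdc-48.1 point lies near the top of the cloud and next to the line, and ufd-1 is the bound gene farthest from it.

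Summit positions varied more between genes than between replicates of 1 gene. The 6 thresholded summits lay between 118 bp (ubxn-2) and 716 bp (ubxn-3) upstream, and none lay downstream of the 5′ end. Of all 1891 promoter peaks the median offset was -195 bp, with quartiles at -351 bp and -100 bp (negative is upstream), so that ubxn-3 alone of the 6 lay outside the middle range. In 4 of the 6 genes (all but ufd-1 and ubxn-2) both replicate summits were within 50 bp of the peak's summit. The share of all matched peaks meeting this rule was not computed. Since the peaks had passed a reproducibility threshold, nothing is read from the count.

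**Figure D5:**
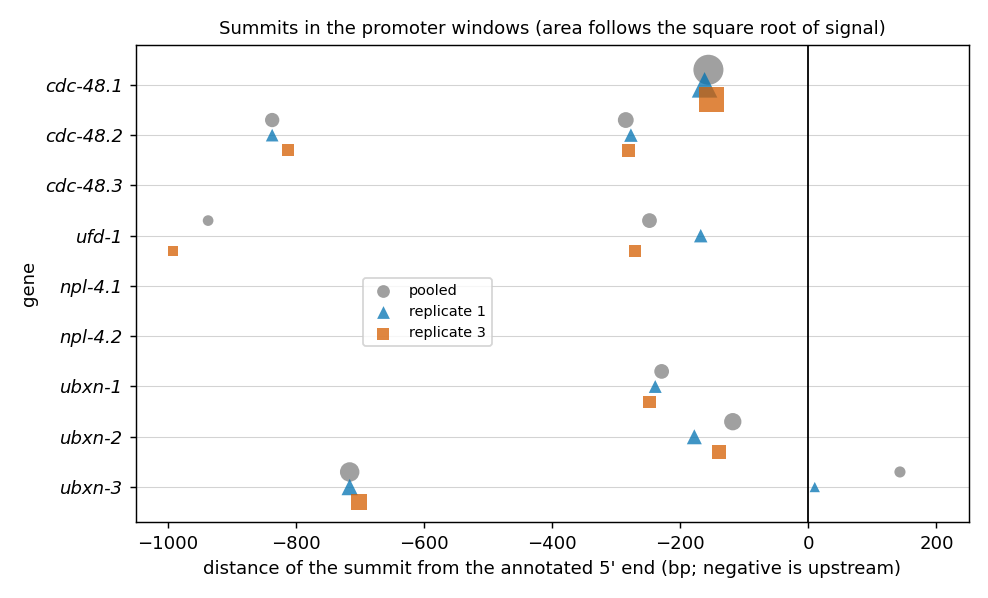
Distance of every listed summit from the annotated 5′ end (bp, negative upstream) in the 9 promoter windows, for the pooled list (grey circles), replicate 1 (blue triangles) and replicate 3 (orange squares); marker area follows the square root of the signal. At cdc-48.1 the summits of the lists lie within 11 bp, at ufd-1 those of the main peak lie up to 103 bp apart with weaker summits farther upstream, and the rows of cdc-48.3, npl-4.1 and npl-4.2 are empty.

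How many of the 9 genes were bound depended on the rule. When the window was narrowed to the last 500 bp upstream and the first 100 bp downstream, 5 were bound, without ubxn-3, against 9.61% of all genes. With each summit given to the nearest 5′ end within 2000 bp, 5 were bound, without ubxn-1, against 11.6%. With peaks above the median signal alone, 3 were bound (cdc-48.1, ubxn-2 and ubxn-3), against 7.43%. With the 3331 strongest regions of replicate 3 in place of the thresholded list, 4 were bound against 12.4%, as ufd-1 and ubxn-1 dropped out. With those of replicate 1, the same 6 were bound against 11.8%.

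Any pooled region, however weak, was found in the windows of the same 6 genes, against 38.6% of all genes. The full list of replicate 3 gave 6 against 40.0%, and that of replicate 1 gave 6 against 38.7%. The 3 genes without a peak had no weaker region in their windows in any of the 4 lists.

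DNA under the 6 summits was mixed in composition. Within 50 bp of the summit the share of A and T was 60.4% at cdc-48.1, 52.5% at cdc-48.2, 58.4% at ufd-1, 55.4% at ubxn-1, 57.4% at ubxn-2 and 44.6% at ubxn-3. Their median of 56.4% stood beside 53.5% for the 1891 promoter peaks (quartiles 48.5% and 59.4%) and 66.3% for all 19973 promoters at the median offset of the peaks. The highest of the 6, cdc-48.1, equalled the lower quartile of all promoters (60.4%). Runs of at least 6 bases that were all A or T numbered 2 at cdc-48.1, 0 at cdc-48.2, 2 at ufd-1, 2 at ubxn-1, 3 at ubxn-2 and 1 at ubxn-3, and the longest, at ubxn-2, was 11 bases.

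Motifs were searched on both strands within 90 bp of the summit. AAAAAA was found at 4 of the 6 summits, and in 52.8% of promoter peaks and 65.3% of all promoters at the median offset; within 50 bp it was found at 2 of 6, against 26.6% and 45.4%. AATATT was found at 1 of 6, against 14.2% of peaks and 22.2% of promoters, and GCGCGC at 0 of 6, against 12.4% and 2.47%. Within 50 bp neither was found at any of the 6, against 6.24% and 12.7% for AATATT and 8.88% and 1.4% for GCGCGC. The shorter CGCGC, which GCGCGC contains, was found at 5 of 6 (all but cdc-48.2), against 37.8% of promoter peaks and 10% of all promoters. Within 50 bp it was found at 4 of 6, against 29.7% and 5.89%. In the printed sequences it appears 2 times at cdc-48.1, 3 times at ubxn-2 and 1 time at ubxn-3, and its nearest copy lay 37 bp, 20 bp and 48 bp from the summit. ACGCAG was found at 2 of 6, against 23.4% and 5.27%, and within 50 bp at 1 of 6, against 17.1% and 2.99%. It lay 4.5 bp from the cdc-48.2 summit and 82.5 bp from that of ubxn-3. CGCGC and ACGCAG were chosen after these sequences were seen, and a match is a description of the letters, not of a binding site.

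Other genes of the pathway were read from 4 lists. Of all protein-coding genes, 12.3% were bound and 38.6% had a pooled region by the same rules. Of 10 further p97 cofactors and partners, 4 were bound (40.0%): ubql-1, the ubiquilin (317), ufd-2, an E4 ubiquitin ligase (245), ufd-3, the relative of human PLAA (243), and rad-23, a proteasome shuttle factor (112). In replicate 1 and replicate 3 ubql-1 had 166 and 147, ufd-2 had 129 and 123, and ufd-3 had 129 and 117. The ubql-1 peak also lay in the window of pdi-3. The rad-23 peak, with 35.4 and 78.6, was higher in replicate 3 and lay nearer to the 5′ end of rpn-12. A pooled region was present for 8 of the 10, the weaker ones being ubxn-4 (70.8), chn-1 (64.9), atx-3 (35.1) and ubxn-5 (27.6).

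In degradation from the endoplasmic reticulum, 12 of 15 listed symbols were found in the annotation, 4 of these were bound (33.3%) and 7 had a pooled region. They were ubc-6 (459) and ubc-7 (198), ubiquitin-conjugating enzymes of this pathway, rnf-121, a RING-finger protein (182), and cup-2, a derlin (133). The ubc-6 peak had 236 in replicate 1 and 224 in replicate 3, and it also fell in the window of aka-1. The rnf-121 and cup-2 peaks lay nearer to C16C10.4 and tag-353. With each summit given to the nearest 5′ end, 2 of the 12 were bound, against 11.6% of all genes.

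Of 23 other AAA ATPases found from 25 symbols, 13 were bound (56.5%) and 22 had a pooled region. The strongest were rfc-4, a clamp loader subunit (515), ruvb-2, a chromatin-remodelling helicase (479), atad-3, a mitochondrial ATPase (429), and nsf-1, the membrane fusion ATPase (313). Of these, the rfc-4, atad-3 and nsf-1 peaks also lay in the windows of eef-1A.1, nrde-2 and adr-1. Some weaker peaks of the 13 lay nearer to another gene. By the nearest 5′ end 11 of the 23 were bound, against 11.6% of all genes. None of the 13 reached the 1565 of cdc-48.1, but that gene was chosen for its strong peak, so nothing is read from this. Of 12 genes for the replicative helicase and the ligase that marks it for CDC-48, found from 13 symbols, 4 were bound (33.3%) and 10 had a pooled region; the bound genes were mcm-4 (276), mcm-2 (166), psf-1 (160) and mcm-6 (89.7). The psf-1 and mcm-6 peaks also lay in the windows of R53.4 and R10E11.9. Over the 4 lists 25 of 57 genes were bound (43.9%) and 47 had a pooled region (82.5%), beside 12.3% and 38.6% of all genes. These lists were compiled with results of the same data known, and no test was made on them.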

How the data were processed

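ATTF-5 ChIP-seq regions came from 2 samples, replicates 1 and 3 of 1 group. The deposited lists are narrowPeak tables in ce11. Per the labels and the text deposited with the samples, the authors called regions against a control in each replicate and in the pooled replicates, and thresholded the pooled regions by reproducibility between replicates (irreproducible discovery rate). The signal per region is the authors' enrichment value and was used as deposited. The deposited −log10 q-value was used only for an alternative threshold of 2. No source used here gives the peak caller, read depth or multi-mapping treatment; values were not rescaled.

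All 3331 thresholded regions were found in the pooled list with equal coordinates and signal. Genes were those of Ensembl release 115, and bases those of the RefSeq genome of the same build. Summits were matched between lists within 100 bp. Uniqueness was the share of 32-base words of a window that occur once in the genome on either strand. Promoter identity used the 300 bp upstream of the 5′ end and coding identity the annotated coding sequences, both from global alignments. Identity was the share of matching bases among positions aligned without gaps. Coding bases were used because no protein table was at hand. Counts of bound genes were read beside the same count over 19973 protein-coding nuclear genes, with no test. The assignment of summits to windows, the dropping of close summits and the matching of summits were tested on simulated summits. The sequence steps were not tested in this way. Python 3.11.15, numpy 2.4.6, pandas 2.3.3, Biopython 1.88 and matplotlib 3.10.9 were used. Named genes were the 9 genes, genes sharing a summit with them, the 3 peaks above and below cdc-48.1 by signal, and up to 4 of the strongest bound genes of each list; other genes are named where they lie next to one of these or where a count of weaker regions is given, and were chosen after values were seen. The genes and lists were chosen with earlier results of these data known. Alternatives were other windows, assignments, thresholds, lists, match distances and widths.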

Additional observations from a re-analysis of the deposited data

How the results depend on the processing

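Of 73 alternative values, 69 were counted as kept, 4 as moved and 0 as reversed. The rule for a kept value was broad. A change in bound genes from 6 to 4 and one in the cdc-48.1 log2 ratio from 0.14 to 0 both counted as kept. The count of bound genes among the 9 was 3 rather than 6 with peaks above the median signal alone, since cdc-48.2, ufd-1 and ubxn-1 lie under it. Leaving out a replicate gave 4 to 6. The cdc-48.1 signal was 744 to 820 when a replicate was left out, against 1565, which by construction is on the scale of both replicates together, and its rank was 4 to 5. The other moved value was the endoplasmic reticulum list, with 2 bound by the nearest 5′ end (11.6% of all genes) instead of 4. Over the 4 pathway lists the count ran from 20 to 29 around 25, while the share of all genes bound ran from 7.43% to 16.1%. Genes with any pooled region numbered 5 to 7 around 6. Widening the window to 2000 bp upstream and 500 bp downstream gave 7 by adding npl-4.1, against 51.3% of all genes. The narrowed window gave 5 against 27.9%, and the nearest 5′ end gave 5 against 50.4%. The log2 ratio at cdc-48.1 was 0 instead of 0.14 after each replicate was divided by the median of its strongest regions. The median AT share was 56.9% within 25 bp and 61.5% within 100 bp of the summits. With 2 replicates and unknown depth, signals near the threshold, such as those of ufd-1 and ubxn-1, could not be ordered. No paired analysis was possible because there was 1 group.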
